A study of Mus musculus with 6 samples.

Results

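The genes described here code for the main collagens and the aggrecan complex of cartilage. They are Col2a1, Col9a1, Col9a2, Col9a3, Col10a1, Col11a1, Col11a2, Acan, Hapln1 and Matn3, and all 10 were found by symbol among the 52081 genes that all 6 libraries list. Their RNA was followed in single cells of the fracture callus, the repair tissue that bridges a broken bone, across chondrocyte-like stages, other cell types and 2 genotypes.

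Calluses of femoral fractures were taken at 14 days post-fracture (dpf) from 12-week-old mice, which the study describes as male. The 3 control libraries are labelled wt, and the study's methods name its control mice Piezo1f/f, bred from the same crosses. The 3 knockout libraries are labelled Col2CreERT; Piezo3-/-, while the series' design text names the gene Piezo1, and the methods describe Piezo1f/f mice with Col2CreERT2, which are called Piezo1Col2a1. Tamoxifen, which switches the Cre on, was given to both groups, at 75 mg/kg on 5 days from day 5 after fracture. The floxed Piezo1 alleles and tamoxifen are therefore shared by both groups as described. Cre is driven by regulatory sequence of Col2a1, itself among the genes described, so deletion is aimed at cells that use this gene. Each library was dissociated callus tissue, and nothing states whether a library holds 1 animal, so p-values measure the spread between libraries.

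Cartilage is a network of thin fibrils in a gel. The fibrils are copolymers of type II collagen (Col2a1) and type XI collagen (Col11a1, Col11a2), with type IX collagen (Col9a1, Col9a2, Col9a3) on their surface and matrilin-3 (Matn3) as an adaptor. Aggrecan (Acan) carries chondroitin sulfate chains that hold water, and link protein (Hapln1) fixes it to hyaluronan. Type X collagen (Col10a1) is the classic product of hypertrophic chondrocytes, the enlarged cells that come before bone replaces cartilage during endochondral ossification.

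The upstream sequences of Col10a1, Matn3 and Col11a1 are shown because these genes differed in direction or size between hyaline and hypertrophic cells. Col10a1 was higher in hypertrophic cells, Matn3 fell most and Col11a1 fell less. Each run is the 250 bases before the annotated start in RefSeq (GRCm38.p6), 5′ to 3′ on the + strand, at chr10:34389731-34389980, chr12:8947679-8947928 and chr3:114030290-114030539. Capitals mark the letters TATAAA (the core of a TATA box, searched on the given strand) and GGGCGG or CCGCCC (a GC box, searched on both strands, overlaps included).
Col10a1: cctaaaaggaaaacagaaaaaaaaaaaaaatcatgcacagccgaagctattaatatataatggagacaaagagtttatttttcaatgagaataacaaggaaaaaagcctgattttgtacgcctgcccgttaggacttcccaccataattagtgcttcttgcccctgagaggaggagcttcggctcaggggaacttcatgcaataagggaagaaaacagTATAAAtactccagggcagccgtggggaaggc
Matn3: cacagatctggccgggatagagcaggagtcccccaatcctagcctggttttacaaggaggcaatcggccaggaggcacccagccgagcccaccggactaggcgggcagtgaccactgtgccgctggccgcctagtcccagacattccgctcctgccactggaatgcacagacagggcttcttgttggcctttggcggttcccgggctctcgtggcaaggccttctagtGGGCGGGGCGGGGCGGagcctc
Col11a1: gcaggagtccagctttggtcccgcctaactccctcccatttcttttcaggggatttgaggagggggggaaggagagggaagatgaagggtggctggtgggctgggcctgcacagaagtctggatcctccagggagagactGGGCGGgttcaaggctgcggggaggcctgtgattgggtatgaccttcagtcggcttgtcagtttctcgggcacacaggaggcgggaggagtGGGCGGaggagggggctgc
Of the 10 genes, 8 had a window. The Col10a1 window held TATAAA at 32 to 27 bases before the start, a match that 7.59% of the 32851 windows of this length hold anywhere, and no GC box. Its GC content was 41.6%, and 15.9% of all windows were at or under it. The GC box was found in the windows of Col9a2, Col11a1, Col11a2, Acan and Matn3, and in 32.7% of all windows. Matn3 held 3 overlapping matches at 22 to 7 bases before the start, and Col11a2 also held TATAAA, at 143 to 138 bases before it. These are matches of letters only.

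The 6 libraries held 57626530 to 103784364 UMIs (unique molecular identifiers, each standing for 1 captured transcript). After filtering, 3190 to 11040 cells per library were kept (44937 in all), and each library shared 36 to 104 cell barcodes with another. Of the cells, 4196 (9.34%) were chondrocyte-like, because they carried more UMIs of Ucma, Matn1, Epyc, Clec3a, Cnmd, Snorc and Susd5 than free RNA gives. Values of several libraries are listed as control 1, 2 and 3 and then knockout 1, 2 and 3. The chondrocyte-like share was 15.2%, 8.42% and 6.41% in controls and 11.2%, 1.03% and 21.6% in knockouts, which overlap (difference of means 1.27 percentage points, exact permutation test, two-sided, p = 0.9; with 3 against 3 the smallest p is 0.1). Knockout 2 stood apart, with only 114 chondrocyte-like cells. Piezo1 was counted at 0.68, 0.43 and 0.44 UMIs per 10000 UMIs in chondrocyte-like cells of controls and at 1.30, 0.51 and 0.47 in those of knockouts, so it was not lower in the knockout libraries. These are 3′ counts, which a deletion of other exons need not change, and so they do not check the label.

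Chondrocyte-like cells were divided by markers that are not among the 10 genes. Hyaline cells (1186) carried Ucma, Matn1, Epyc, Clec3a, Sfrp5, Cytl1 or Scrg1, hypertrophic cells (808) carried Ihh, Pank1 or Panx3, and transitional cells (1227) carried both sets. Another 785 cells with neither set are called Snorc/Cnmd only. A further 190 cells, whose summed UMIs of Chil1 and Mmp3 passed a threshold set above free RNA, are called Chil1/Mmp3-positive and given no cell type name. Either gene alone could suffice. These 190 cells were taken out before the stages were set, so they can carry the hyaline or the hypertrophic set too. Sfrp5, Cytl1 and Scrg1 come from a list of early fibrocartilage-like chondrocytes, so the class called hyaline can hold that type too. In it the stromal markers Penk, Aspn, Sfrp2 and Ptn summed to a median of 11.5, 6, 8, 12 and 4 UMIs per cell (controls 1 to 3, knockouts 1 and 3). Hypertrophic cells there had 3, 0, 0, 2 and 1. Hypertrophic cells also had to pass the chondrocyte list, so cells with Ihh, Pank1 or Panx3 that failed it are not among them. Of all chondrocyte-like cells, 9.70% lay under 1.5 times the threshold. Knockout 2 had 1 hyaline and 5 transitional cells, so these stages are given for the other 5 libraries. A level below means UMIs of a gene per 10000 UMIs of all cells of a class in 1 library, and since each transcript is counted once at its 3′ end, it is not divided by gene length.

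RNA of these genes was also found in neutrophils, white blood cells that do not make cartilage, which served as a gauge of free RNA in the droplets. Their label fits their markers, with S100a8 at 207 to 817 UMIs per 10000 in neutrophils and at 0.31 to 8.81 in hyaline cells. Col2a1 stood at 24.3, 8.75 and 3.81 per 10000 in neutrophils of the controls and at 19.7, 0.19 and 34.95 in those of the knockouts. The gauge thus differed widely among libraries and was lowest in knockout 2. In neutrophils taken by the rule of at least 2 UMIs of Csf3r and Cxcr2, the 10 genes summed to 237, 75.7 and 29.1 per 10000 in controls and 192, 12.4 and 140 in knockouts (114 ± 109 against 115 ± 92.5, SD, n = 3, exact permutation test, two-sided, p = 1). Those that passed no chondrocyte or bone list, whether or not they passed another list, are used below where nothing else is said. They held 61.7, 16.6 and 12.9 per 10000 in controls and 51.6, 3.54 and 74.4 in knockouts. They lack 4 to 52 cells per library that also passed a chondrocyte or bone list, so the gauge depends on a few cells and folds over it are given both ways where a count turns on them. After each cell was thinned to 500 UMIs, 70.4%, 46.2% and 24.0% of control neutrophils and 73.6%, 0.44% and 76.7% of knockout neutrophils still had a Col2a1 UMI. Their median depth was 1893 to 10007 UMIs per cell, against 10689 to 39503.5 in hyaline cells, where the thinned share was 94.7% to 100%.

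Col2a1, the chain of the main fibril, was the most abundant of the 10 genes in hyaline and transitional cells of every library with these stages. In hyaline cells its level was 489, 463 and 271 in controls and 467 and 509 in knockouts 1 and 3. In transitional cells it was 692, 776 and 476 in controls and 741 and 627 in those knockouts, above the hyaline cells of the same library each time. In hypertrophic cells it was 368, 350 and 170 in controls and 333, 30.2 and 242 in knockouts. The hypertrophic level lay below the hyaline level in all 5 libraries with both, by a median log2 ratio of -0.49 (SD 0.28), and it remained above neutrophils in every library, also when all neutrophils by the rule are used. The low 30.2 of knockout 2 rests on 3227 UMIs from 48 cells.

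The type IX chains, which sit on the fibril surface, had lower median ratios of hypertrophic to hyaline cells than Col2a1. The median log2 ratio of hypertrophic to hyaline cells was -1.05 for Col9a1 (SD 0.47), -0.79 for Col9a2 (SD 0.32) and -1.12 for Col9a3 (SD 0.28), and each was lower in 5 of 5 libraries. Col9a2 was not below Col2a1 in each library, since its log2 ratio was -0.20 in control 2, against -0.40 for Col2a1, and both stood at -1.08 in knockout 3. Hyaline Col9a1 stood at 37.6, 31.0 and 23.4 in controls and 30.6 and 29.2 in knockouts 1 and 3. Hypertrophic Col9a1 was 15.7, 14.9 and 11.9 in controls and 15.4, 1.02 and 6.90 in knockouts. The stages did not overlap for Col9a1. The 3 chains also shifted against each other. Col9a1 made up 31.8%, 31.6%, 35.8%, 29.7% and 23.0% of the type IX UMIs in hyaline cells of the 5 libraries (control 1 to 3, knockout 1 and 3) and 27.2%, 23.5%, 36.6%, 28.8% and 14.7% in hypertrophic cells. Its share was lower in hypertrophic cells of 4 libraries and higher in control 3. Col9a2 took 33.3%, 26.9%, 24.8%, 34.1% and 29.4% in hyaline cells and 39.5%, 36.1%, 28.3%, 39.1% and 37.6% in hypertrophic cells, higher in all 5.

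The type XI chains, which set the width of the fibrils, were also lower in hypertrophic cells. Col11a1 stood at 126, 83.9 and 78.3 in hyaline cells of controls and 106 and 78.1 in those of knockouts 1 and 3. In hypertrophic cells it was 80.5, 59.8 and 54.9 in controls and 71.5, 18.6 and 30.4 in knockouts. Within each of the 5 libraries the hypertrophic level was the lower (median log2 ratio -0.56, SD 0.37), although the ranges of the stages touched between libraries. Col11a2 was lower by a median log2 ratio of -1.11 (SD 0.57), from 22.8 to 34.3 in hyaline cells to 7.93 to 19.1 in hypertrophic cells. The proportion of Col2a1 to Col11a1 differed more among libraries than between stages, with 3.89, 5.51, 3.46, 4.42 and 6.52 Col2a1 UMIs per Col11a1 UMI in hyaline cells and 4.57, 5.85, 3.09, 4.66 and 7.95 in hypertrophic cells of the same 5 libraries.

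Matn3, the adaptor that links collagen fibrils to other matrix proteins, showed the steepest fall of the 10 genes. Its level in hyaline cells was 18.2, 20.7 and 25.3 in controls and 20.8 and 20.9 in knockouts 1 and 3. In hypertrophic cells it was 5.34, 5.58 and 3.90 in controls and 5.87, 0.15 and 2.90 in knockouts. The stages did not overlap, and the median ratio was 3.70-fold lower in hypertrophic cells (log2 -1.89, SD 0.52). The value of knockout 2 rests on 16 UMIs. After thinning to 500 UMIs, 55.0% to 68.6% of hyaline cells had a Matn3 UMI in the 5 libraries, against 12% to 22.5% of hypertrophic cells and 1.57% to 8.45% of neutrophils there.

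Acan and Hapln1, the proteoglycan and the link protein that binds it to hyaluronan, did not follow the fibril genes from hyaline to hypertrophic cells. Acan was at 69.4, 46.7 and 60.3 in hyaline cells of controls and 74.5 and 57.3 in those of knockouts 1 and 3. In hypertrophic cells it was 74.2, 48.8 and 25.0 in controls and 73.2, 5.43 and 43.6 in knockouts. The direction differed among libraries, with Acan higher in hypertrophic cells of controls 1 and 2 and lower in those of control 3 and knockouts 1 and 3 (median log2 ratio -0.03, SD 0.57). Hapln1 had no shared direction either, at 32.3, 21.7, 19.6, 22.3 and 23.4 in hyaline and 31.9, 31.3, 10.3, 26.0 and 16.3 in hypertrophic cells of the 5 libraries (median log2 ratio -0.02, SD 0.58). In transitional cells Hapln1 stood at 77.9, 59.6, 36.3, 55.9 and 45.6, and Acan at 89.1, 68.5, 62.65, 85.2 and 68.2. These levels were above hyaline and hypertrophic cells in each library, as were those of the type II, IX and XI chains. Acan UMIs outnumbered Hapln1 UMIs by 2.15 to 3.35 times in hyaline cells and by 1.14 to 1.73 times in transitional cells.

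Col10a1, unlike the 7 genes that were lower in hypertrophic cells, was higher there than in hyaline cells. Hyaline cells held 13.5, 3.29 and 1.61 in controls and 11.8 and 15.9 in knockouts 1 and 3, against 13.03, 1.04 and 0.35 in neutrophils of the same controls and 7.26 and 9.91 in those of the knockouts. That is 1.04, 3.17 and 4.60 times the neutrophil level in controls and 1.62 and 1.61 times in knockouts. Over all neutrophils by the rule, which held 50.9, 6.18, 0.36, 10.8 and 18.8 in these libraries, the hyaline level was lower in controls 1 and 2 and knockout 3. As a share of UMIs, hyaline Col10a1 was thus not clear of free RNA there. Hyaline cells were deeper, with a mean of 54.7, 5.33, 1.89, 43.1 and 28.9 Col10a1 UMIs per cell. Neutrophils that passed no chondrocyte or bone list had 16.1, 0.42, 0.14, 9.20 and 5.80. Shares and counts per cell can thus order the classes differently. The level in transitional cells was 158, 84.7 and 55.9 in controls and 70.1 and 64.5 in knockouts. Hypertrophic cells held 344, 264 and 39.3 in controls and 199, 38.8 and 214 in knockouts. At full depth, 100%, 85% and 50% of hypertrophic cells in controls and 100%, 97.9% and 100% in knockouts had a Col10a1 UMI. For transitional cells the share was 100%, 85.4% and 50% in controls and 100% in knockouts 1 and 3. The name hypertrophic thus rests on Ihh, Pank1 or Panx3 and not on Col10a1. The rise from hyaline to hypertrophic cells had a median of 24.4-fold (log2 4.61, SD 0.99, 5 of 5 libraries), and from hyaline to transitional cells 11.6-fold. From transitional to hypertrophic cells it rose further in 4 of 5 libraries, while control 3 fell from 55.9 to 39.3. 

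**Figure D1:**
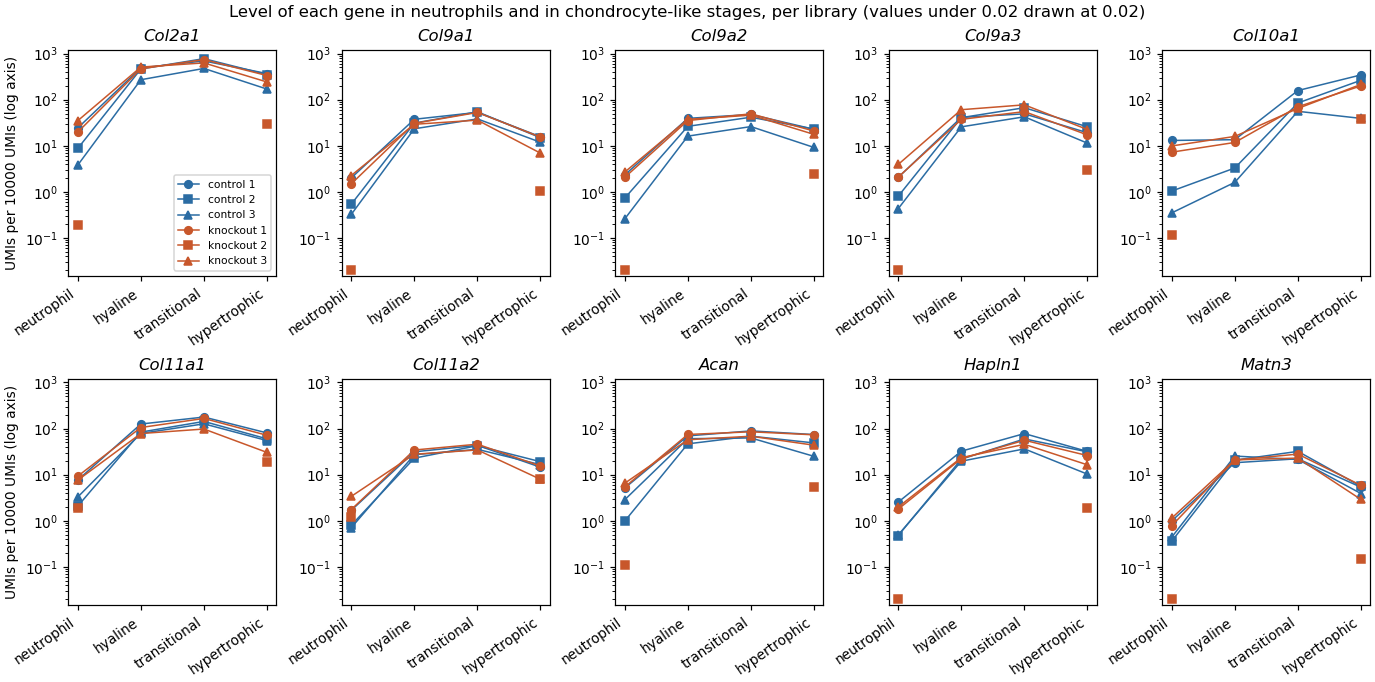
Level of each of the 10 genes (UMIs per 10000 UMIs, log axis) in neutrophils, hyaline, transitional and hypertrophic cells, with a line per library (blue control, orange knockout; symbol by replicate). Values under 0.02, which occur in knockout 2 neutrophils, are drawn at 0.02, and knockout 2 has no hyaline or transitional point; Col10a1 climbs from 1.61 to 15.9 in hyaline cells to 38.8 to 344 in hypertrophic cells, while Matn3 drops to 0.15 to 5.87.

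Between hyaline and hypertrophic cells, 7 of the 10 genes were thus lower in all 5 libraries (Col2a1, Col9a1, Col9a2, Col9a3, Col11a1, Col11a2 and Matn3), against 17.4% of the 13902 genes with at least 50 UMIs in these cells. Col10a1 was higher in all 5, as were 11.5% of these genes. From hyaline to transitional cells, 9 of 10 were higher in all 5 libraries, against 7.22% of 14662 genes, and Matn3 was higher in 4. None was lower in all 5, although 24.6% of these genes were. From transitional to hypertrophic cells 9 of 10 were lower in all 5, against 10.1% of 14465 genes, with Col10a1 the exception. Hypertrophic Col9a1 was 3.43-fold and Matn3 5.48-fold below the transitional cells at the median, against 1.40-fold for Acan. Stages were set by other genes of the same cells, so these ratios are descriptions and were not tested. Transitional cells, which need 2 marker sets, were also the deepest, with a median of 18340 to 49832 UMIs per cell, against 10689 to 39503.5 in hyaline and 13912 to 42891 in hypertrophic cells of the 5 libraries. The part of depth, or of droplets that hold a hyaline and a hypertrophic cell, in the transitional levels was not tested. Taking the neutrophil level off each stage left the counts at 7 lower and 1 higher, with a median log2 ratio of 5.40 for Col10a1. That ratio divides by small remainders, since hyaline Col10a1 was 1.04 to 4.60 times the neutrophil level. Taking off the level of all neutrophils by the rule also left 7 lower. With that gauge hyaline Col10a1 lay below free RNA in controls 1 and 2 and knockout 3, so no rise of it is read there.

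**Figure D2:**
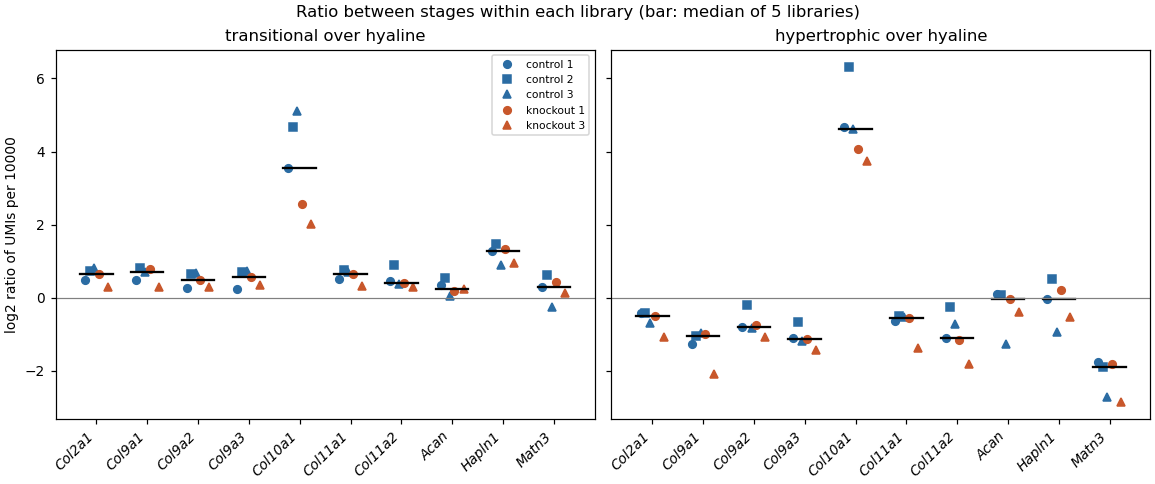
Log2 ratio of the level in transitional (left) or hypertrophic (right) cells over hyaline cells of the same library for each gene; points are the 5 libraries with both stages and the bar is their median. All genes but Matn3 in control 3 lie above 0 on the left; on the right 7 genes lie below 0 in every library, Col10a1 lies between 3.75 and 6.32, and Acan and Hapln1 fall on both sides of 0.

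The balance of Col10a1 to Col2a1 separated the 3 stages within each of the 5 libraries that had them all. Per Col2a1 UMI there were 0.028, 0.0071 and 0.0059 Col10a1 UMIs in hyaline cells of controls and 0.025 and 0.031 in those of knockouts 1 and 3. In transitional cells the ratio was 0.23, 0.11 and 0.12 in controls and 0.095 and 0.10 in knockouts. In hypertrophic cells it was 0.94, 0.75 and 0.23 in controls and 0.60, 1.28 and 0.89 in knockouts, so only knockout 2 held more Col10a1 than Col2a1 RNA. Cell by cell, Col10a1 UMIs outnumbered Col2a1 UMIs in 61 of 135 hypertrophic cells of control 1 (45.2%, 95% Wilson interval 37.0% to 53.6%), 13 of 40 of control 2 (32.5%, 20.1% to 48.0%) and 8 of 50 of control 3 (16%, 8.34% to 28.5%). In knockouts this held for 19 of 56 cells (33.9%, 22.9% to 47.0%), 18 of 48 (37.5%, 25.2% to 51.6%) and 224 of 479 (46.8%, 42.3% to 51.2%). Control 3 was thus the lowest library in the hyaline and the hypertrophic ratio and in the share of cells, but not in the transitional ratio. The intervals cover counting error only.

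The hypertrophic cells of knockout 2 differed from those of the other libraries in other genes too. Their level of Ifitm5, an osteoblast gene, was 7.56, against 0.082 to 2.30 in hypertrophic cells of the other 5 libraries and 12.3 in osteoblast-like cells of knockout 2. Their summed osteoblast markers had a median of 13 UMIs per cell, against 0 to 2 elsewhere, and their osteoclast markers 5, against 0 to 1. Of the 7 genes that were lower in hypertrophic than in hyaline cells elsewhere, 6 were lower in knockout 2 than in the hypertrophic cells of any other library, and Col11a2 stood at 8.10 there and at 7.93 in knockout 3. Acan (5.43), Hapln1 (1.92) and Col10a1 (38.8, against 39.3 in control 3) were also lowest in knockout 2, so the low values were not particular to the 7. The part of these other cell types in the low values was not tested.

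Outside the 3 stages, Snorc/Cnmd only cells carried less of 9 of the 10 genes than hyaline cells in all 5 libraries with both, where 6.97% of 13284 genes with at least 50 UMIs were lower. Col10a1 was higher in all 5, as were 13.2% of these genes. Their Col2a1 level was 255, 103 and 145 in controls and 259, 11.6 and 299.6 in knockouts. Their Col10a1 level was 44.5, 8.18 and 10.4 in controls and 29.0, 24.4 and 73.5 in knockouts, between the hyaline and the hypertrophic level in the 5 libraries with both. Per Col2a1 UMI they held 0.17, 0.079 and 0.072 Col10a1 UMIs in controls and 0.11, 2.10 and 0.25 in knockouts. This was below the transitional ratio in the controls and above it in knockouts 1 and 3. In knockout 2 it was above the 1.28 of hypertrophic cells. Of the Snorc/Cnmd only cells, 28.9% lay under 1.5 times the threshold, the largest share of the 5 chondrocyte-like classes.

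Chil1/Mmp3-positive cells were mostly from control 3 (141 of 190), with 11, 19 and 15 in controls 1 and 2 and knockout 1. In control 3 their Col2a1 level was 59.4, against 271 in hyaline cells of that library, and their Acan level was 6.88, against 60.3. Spp1, the gene of osteopontin, stood at 980.0 there, against 35.6 in hyaline cells. Per Col2a1 UMI they held 0.22 Col10a1 UMIs in control 3, against 0.23 in the 50 hypertrophic cells of that library. In controls 1 and 2 and knockout 1 this ratio was 0.12, 0.0057 and 0.28. How many of them also carried the hypertrophic set was not counted. In controls 1 and 2 and knockout 1 Col2a1 was 668, 479 and 161, so the class did not hold to 1 level. Col9a3, Acan and Matn3 were lower than in hyaline cells in all 4 libraries with both, and the direction of the other 7 genes differed among libraries. The share of all genes lower in all 4 was not counted, and few cells stand behind the libraries other than control 3. The count is therefore not read as a result about these genes.

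Among other cell types, the type XI chains stood apart from the rest of the 10 genes. Osteoblast-like cells, placed by Ifitm5, Bglap and Bglap2, held Col11a1 at 39.7, 14.9 and 20.7 in controls and 26.4, 26.1 and 18.4 in knockouts, against 7.65, 2.08, 3.28, 9.27, 1.86 and 7.60 in neutrophils of the same libraries. Every library was above its neutrophils, with a median of 5.75-fold. Col11a2 was at 10.3, 4.75 and 8.37 in osteoblast-like cells of controls and 4.06, 17.1 and 6.86 in those of knockouts, a median of 6.04 times the neutrophil level. These 2 genes, and none of the other 8, were at least 2 times the neutrophil level in all 6 libraries in osteoblast-like cells, where 5.88% of 14279 genes were. This count rests on the gauge. Over all neutrophils by the rule, osteoblast-like Col11a1 was 1.49, 1.76 and 3.32 times the neutrophil level in controls and 0.89, 3.79 and 1.32 times in knockouts, Col11a2 was 0.58 to 5.92 times, and 0 of the 10 genes reached 2 times in all 6 (3.83% of 14494 genes did). With the first gauge, Col11a1 and Col11a2, and no others of the 10, also reached 2 times in all 6 libraries in osteocyte-like cells, placed by Dmp1, Phex, Mepe and Sost (4.93% of 13715 genes), with medians of 8.12-fold and 11.6-fold. Over all neutrophils by the rule both did so in 4 of 6 libraries, with 1.32 and 1.70 times for Col11a1 in knockouts 1 and 3, and 0 of the 10 genes met it in all 6 (3.47% of 13989 genes). Osteocyte-like Col11a1 reached 54.6, 31.9 and 29.8 in controls and 39.0, 32.4 and 23.8 in knockouts, and in knockout 2 this was above the 18.6 of its hypertrophic cells.

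Periosteal-like stroma, placed by Penk, Aspn, Sfrp2 and Ptn, held Acan and Col11a1 at higher levels than neutrophils. Its Acan level was 19.1, 12.4 and 10.3 in controls and 19.7, 2.41 and 19.98 in knockouts, against 5.13, 0.98, 2.86, 5.40, 0.11 and 6.52 in neutrophils. Acan was thus 3.07 to 21.5 times the neutrophil level (median 3.69), and Col11a1 2.44 to 9.69 times, both at least 2 times in 6 of 6 libraries, where 9.09% of 14491 genes were. Over all neutrophils by the rule Acan was 1.30 to 10.4 times (at least 2 times in 3 of 6 libraries) and Col11a1 1.10 to 2.38 times (1 of 6), so both counts in all 6 were lost, and 5.63% of 14677 genes met it. In tendon-like cells, placed by Tnmd, Kera, Thbs4 and Mkx, Col11a1 was the only gene of the 10 to meet this (2.08 to 9.78 times). That is near the 9.2% of 15221 genes that did so, and the count is not read as a result about these genes. Over all neutrophils by the rule, tendon-like Col11a1 was 0.72 to 2.40 times (6.25% of 15374 genes in all 6). The chains were not in 1 proportion across cell types. There were 3.02 to 12.6 Col11a1 UMIs per Col11a2 UMI in periosteal-like stroma, 1.53 to 6.51 in osteoblast-like cells and 2.81 to 4.01 in hyaline cells.

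In the bone-forming classes Col2a1 and Col10a1, as shares of UMIs, did not reach 2 times the neutrophil level in all 6 libraries. Osteoblast-like Col2a1 was 30.05, 9.11 and 6.06 in controls and 14.8, 0.97 and 24.3 in knockouts, which is 0.69 to 5.09 times the neutrophil level, and the highest ratio was in knockout 2, where both levels were under 1. Osteoblast-like Col10a1 was 10.7, 0.44 and 0.45 in controls and 3.80, 0.20 and 6.11 in knockouts, against 13.03, 1.04, 0.35, 7.26, 0.12 and 9.91 in neutrophils. Col2a1 was 1.16 to 4.66 times the neutrophil level in osteoprogenitor-like cells and 1.00 to 6.57 times in osteocyte-like cells, at least 2 times in 3 and 2 of 6 libraries. Osteocyte-like Col10a1 was 0.53 to 14.6 times, with the highest ratio in control 3 (5.09 against 0.35 per 10000). Over all neutrophils by the rule Col2a1 was 0.27 to 1.31 times in osteoprogenitor-like, 0.15 to 1.44 times in osteoblast-like and 0.21 to 1.85 times in osteocyte-like cells. Endothelial-like, macrophage-like, osteoclast-like and lymphocyte-like cells held Col2a1 at 0.43 to 1.21 times the neutrophil level, and none of the 10 genes reached 2 times that level in all 6 libraries in any of these 4 classes. Counted per cell, osteoblast-like cells had a mean of 92.4, 12.3, 6.81, 50.5, 1.52 and 47.2 Col2a1 UMIs. Endothelial-like cells had 33.0, 5.48, 1.58, 28.8, 0.11 and 26.3, and neutrophils 30.1, 3.55, 1.54, 25.0, 0.097 and 20.5. By this count both classes were above neutrophils in every library. The part of depth in this was not tested.

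**Figure D3:**
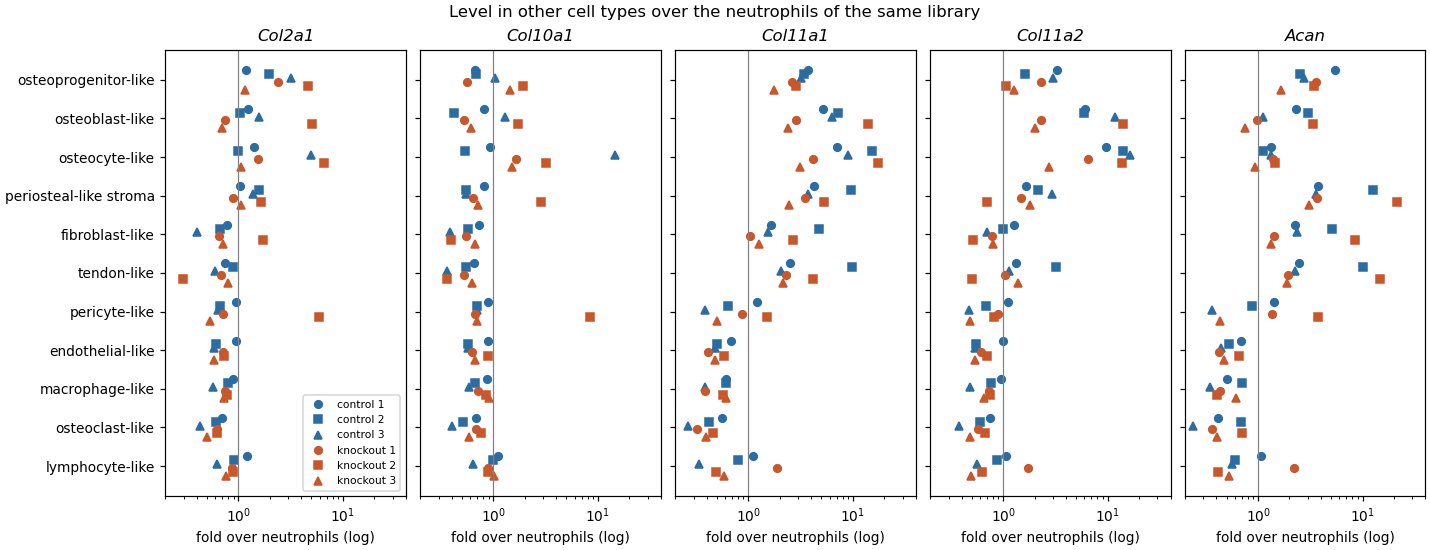
Level of 5 of the genes in 11 other cell types as a fold over the neutrophils of the same library that passed no chondrocyte or bone list (log axis, grey line at 1, each point a library, blue control and orange knockout). Col11a1 and Col11a2 lie at 2.03 or higher in osteoblast-like and osteocyte-like cells of all 6 libraries. Acan lies at 3.07 or higher in periosteal-like stroma. Median folds of Col10a1 are 0.54 to 0.95 in all types but osteocyte-like cells (1.57). Those of Col2a1 are 1.14 to 2.17 in osteoprogenitor-like, osteoblast-like and osteocyte-like cells and periosteal-like stroma, and 0.62 to 0.88 in the other types.

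The same difference showed in the make-up of the summed UMIs of the 10 genes. In osteoblast-like cells Col11a1 and Col11a2 made up 43.2%, 56.4% and 71.3% of these UMIs in controls and 50.7%, 95.9% and 36.7% in knockouts. In all chondrocyte-like cells they made up 15.1%, 13.7% and 18.9% in controls and 15.4%, 21.4% and 10.9% in knockouts. In neutrophils the share was 15.1%, 17.4%, 30.8%, 21.3%, 87.0% and 14.8%. Knockout 2, which held 1024 osteoblast-like cells against 27 to 279 in the other libraries, had by far the highest share in osteoblast-like cells and in neutrophils. The source of the free RNA was not tested.

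**Figure D4:**
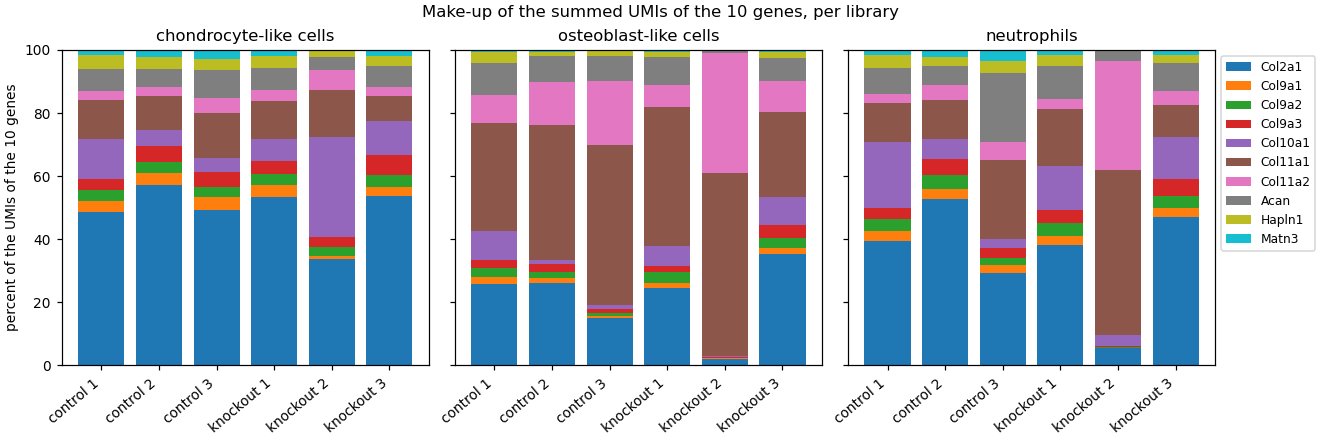
Share of each gene in the summed UMIs of the 10 genes (stacked bars, percent) per library in chondrocyte-like cells, osteoblast-like cells and neutrophils. Col2a1 makes up 33.6% to 57.3% in chondrocyte-like cells, and in knockout 2 the type XI chains fill 95.9% of the osteoblast-like and 87.0% of the neutrophil bar.

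Genes of collagen processing, of chondroitin sulfate and hyaluronan and of other matrix mostly moved with the fibril genes between stages. Breakdown genes and transcription factors did not. Of 28 genes of collagen processing, 21 were lower in hypertrophic than in hyaline cells in all 5 libraries, against 17.4% of all genes. They included Plod2, a lysyl hydroxylase (median level 16.5 in hyaline and 6.26 in hypertrophic cells), and Serpinh1, the collagen chaperone (18.7 and 10.2). Higher in all 5 were the crosslinking enzymes Lox (4.25 and 6.75) and Loxl4 (0.46 and 4.49) and the procollagen C-proteinase enhancer Pcolce2 (2.99 and 6.08), 3 genes against a background of 11.5%. Of 23 measured genes for chondroitin sulfate and hyaluronan, 15 were lower in all 5 and 0 higher, among them the sulfate transporter Slc26a2 (6.01 and 2.11) and Xylt1, which starts the chains (4.63 and 2.22). Of 13 measured genes for aggrecan and collagen breakdown, 3 were lower and 2 higher in all 5. These counts are near the 17.4% and 11.5% of all genes and are not read as a result about this list. The 2 higher genes were the collagenase Mmp13 (1.84 and 21.2) and the inhibitor Timp3 (3.27 and 5.78). Of 20 other matrix genes, 12 were lower and 1 higher, Chad, which codes for chondroadherin (4.64 and 9.55). Of 11 measured transcription factors, Sox9, Sox5 and Sox6, known activators of cartilage genes, were lower in all 5, while Runx2, Mef2c, Trps1, Foxa2, Foxa3 and Dlx5 were higher. This list thus held more genes that were higher (6) than lower (3) in hypertrophic cells. The genes named here were picked after their values were seen.

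Levels of the 10 genes varied together over cell types. Across 98 sums (17 classes, each library with at least 10 cells), Pearson's r of log2(CPM + 1) between pairs of them lay between 0.67 (Col10a1 with Col11a1) and 0.99 (Col2a1 with Col9a3). All marker genes used to place cells were left out of the rankings that follow, so none of them could appear. The genes most like Col2a1 among 7858 others were Eps8l2 (r = 0.94), Mia (0.92), Comp (0.91), Meltf (0.89) and Ppp1r1b (0.88). Those most like Col10a1 were Wnk4 (r = 0.92), Slc38a3 (0.88), Chad (0.87), Eps8l2 (0.86) and Scube1 (0.86). The sums of a library share its depth and free RNA, so these values are descriptions.

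The knockout and control libraries did not differ in any of the 10 genes by edgeR's quasi-likelihood test. In all chondrocyte-like cells Col2a1 stood at 549.7, 522 and 197 in controls and 589.8, 37.9 and 469 in knockouts (423 ± 196 against 366 ± 290.1, SD, n = 3), with a log2 fold change of -0.12 (SE 0.91). The groups overlapped, and the lowest library of each group set the spread. Col10a1 was at 146, 47.4 and 18.1 in controls and 77.7, 35.8 and 93.7 in knockouts (log2 fold change 0.09, SE 0.75). Over the 10 genes the log2 fold change lay between -0.36 (Col9a1) and 0.09, and SEs were 0.57 to 1.09. All 10 passed the filter on low counts in all 3 sets of cells tested. Of 15115 genes tested, 0.0% were called at an adjusted p under 0.05, and 5.58% had groups that did not overlap, against 0 of the 10 genes on both counts. Unadjusted, 260 genes had p under 0.05, and DESeq2 called 3. Without knockout 2, whose chondrocyte-like cells were few and mostly hypertrophic or Snorc/Cnmd only, all 10 fold changes were above 0 (0.13 to 0.62), so that 7 of them changed sign. In a whole class, fewer cells of a stage and less RNA per cell cannot be told apart.

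Within stages the fold changes were of other sizes but were not called either. In hyaline cells (3 controls against knockouts 1 and 3) Col10a1 differed most, at 13.5, 3.29 and 1.61 in controls and 11.8 and 15.9 in knockouts (log2 fold change 1.30, SE 0.73), levels that were 1.04 to 4.60 times those of neutrophils. The 9 other genes had fold changes of -0.01 to 0.56. In hypertrophic cells all 10 fold changes were below 0, from -0.88 (Col9a1, SE 0.70) to -0.24 (Acan, SE 0.73). The largest relative to its SE was that of Col11a2, at 14.5, 19.1 and 16.5 in controls and 15.4, 8.10 and 7.93 in knockouts (log2 fold change -0.68, SE 0.38). Knockout 1 lay within the controls. Called genes made up 0.0% of 13259 genes in hyaline and 0.0% of 9801 in hypertrophic cells (unadjusted p under 0.05 for 323 and 144; DESeq2 called 7 and 3), and groups did not overlap for 13.6% and 5.17% of genes but for 0 of the 10. The adjusted p of edgeR was at least 0.999 for each of the 10 genes in each set, which does not show that the groups are alike, with SEs of up to 1.09 on the log2 scale. The log2 ratio of Col10a1 to Col2a1 in all chondrocyte-like cells was -1.91, -3.46 and -3.45 in controls and -2.92, -0.08 and -2.32 in knockouts (difference 1.17, exact permutation test, two-sided, p = 0.3).

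**Figure D5:**
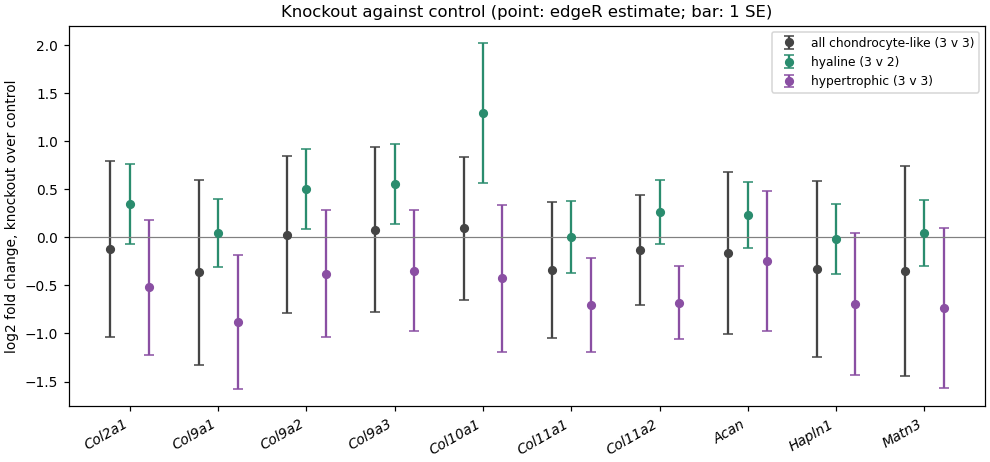
Log2 fold change of knockout over control for each gene from edgeR (points) with 1 SE (bars) in all chondrocyte-like, hyaline and hypertrophic cells. Bars of most genes cross 0; hyaline Col10a1 stands highest at 1.30 and hypertrophic Col9a1 lowest at -0.88, and none of the plotted values passed the threshold.

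None of the 5 lists of genes that work with these products held a called gene. In all chondrocyte-like cells the median log2 fold change was -0.13 over 28 collagen processing genes, -0.28 over 24 for chondroitin sulfate and hyaluronan, 0.10 over 14 of 15 for breakdown, -0.50 over 20 other matrix genes and -0.03 over 11 of 12 transcription factors, beside 0.003 over all genes tested. The largest sizes in each list were P4ha3 (-0.95) and Bmp1 (0.73), Chst13 (4.04, a gene at 0.22 per 10000 in knockout 2 and at 0.013 or less elsewhere) and Chst3 (-0.75), Mmp9 (2.90) and Adamts9 (1.39), Col14a1 (-1.999) and Matn2 (-1.14), and Sox5 (-0.83) and Dlx5 (0.72). Mmp9, a protease that osteoclasts also make, was at 0.21, 0.17 and 0.32 in controls and 0.82, 3.44 and 0.75 in knockouts (unadjusted p = 0.00193, adjusted p = 1.00 by edgeR). It was higher in each knockout library than in any control, and the groups did not overlap for 5.58% of all genes tested. Among the genes of these lists, Matn2 and Loxl1 were lower in each knockout library than in any control. Mmp9 was highest in knockout 2, where osteoclast markers had a median of 5 UMIs per hypertrophic cell. The part of osteoclast RNA was not tested.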

How the data were processed

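Single-cell 3′ libraries of callus tissue from 3 control and 3 knockout libraries were used. The study's text gives more than 1 number of mice for this experiment, and how many animals a library holds is not stated. The authors counted UMIs per gene and barcode with Cell Ranger, which the file headers give as 6.1.1 for replicate 1 of both groups and 6.1.2 for the others, and the deposited values are unnormalized UMI counts for the barcodes that it kept. The build is GRCm38 per the submitters' processing notes. Cells needed 500 UMIs, 200 genes and no more than 20% mitochondrial UMIs. Genes were joined by identifier, and the 52081 shared genes held at least 97.8% of UMIs in each library.

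A cell passed a marker list when its UMIs of that list reached 5 plus 2 times the number expected from free RNA, taken from neutrophils of the same library (the highest 5% trimmed). Rbp4, Pth1r, Smpd3, Pi16, Lcn2 and Hp were dropped from the lists. The gates were tuned on these cells with the genotype left aside. Cells that passed a chondrocyte or bone list and a list of endothelial cells, macrophages, lymphocytes, osteoclasts or neutrophils were left out as possible doublets (27 to 267 per library), and no doublet caller was run. Classes with under 10 cells in a library were not used there.

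UMIs were summed per class and library and tested with edgeR 4.0.16 in R 4.3.3 (TMM scaling after filterByExpr, two-sided quasi-likelihood F test, threshold 0.05 after Benjamini-Hochberg adjustment over all genes tested), with the group as the only factor. The SE is the fold change divided by the square root of F. Single values were compared with exact permutation tests over all 20 assignments (scipy 1.17.1, Python 3.11.15). The edgeR step was also run on simulated counts, whose outcome is not given here and is not used to read the absence of called genes. The alternatives were DESeq2 1.42.0, no filter, a replicate block, omission of single libraries or of replicate 3 in both groups, a stricter filter (1000 genes, 10% mitochondrial UMIs), doubled marker UMIs, thinning to 500 UMIs and free RNA taken off. Added after seeing the data were leaving out Chil1/Mmp3-positive cells and the gauge of neutrophils that pass no chondrocyte or bone list. All neutrophils by the rule as the gauge for stages and other cell types were added then too. So were free RNA taken off the ratios and each library left out of the stage counts.

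All 10 genes are named, with the 5 genes most like Col2a1 and the 5 most like Col10a1 by Pearson's r, and at most 4 genes per list by size of the fold change. The genes and lists were chosen with earlier results of these data known. Upstream sequences are from RefSeq (GRCm38.p6). Other experiments of the study were not analysed here.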

Additional observations from a re-analysis of the deposited data

How the results depend on the processing

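With each library left out, the stricter cell filter or doubled marker UMIs, 7 of the 10 genes were lower in hypertrophic than hyaline cells. This held in every library used. For thinned cells the measure was another, the share of cells with a UMI of the gene. By that share 7 genes were lower in every library too, but the set differed. Col2a1 dropped out, with 95% of hypertrophic and 94.7% of hyaline cells in control 2, and Acan came in. None of the 10 genes was called between groups under any setting, with a smallest adjusted p of 0.20. The genes called among all tested moved with the tool: DESeq2 called 3, 7 and 3 in all chondrocyte-like, hyaline and hypertrophic cells and edgeR without a filter on low counts 3, 96 and 42. In hyaline cells 0 to 5 genes were called with a library left out (2 without control 1, 5 without knockout 1) and 1 without replicate 3 of both groups.

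Same-numbered libraries deviated together in 1 of 3 pairs (r = 0.36, -0.08 and -0.05, and 2 of 6 libraries correlated best with their own number), so a pairing was not shown. The numbers go with processing all the same, since replicate 1 of both groups was counted with Cell Ranger 6.1.1. It had 2554 and 2728.5 median UMIs per barcode, against 5691 to 9289.5 elsewhere. Its chondrocyte-like cells were yet the deepest, with medians of 41391 and 44974.5 UMIs, against 10898 to 19406.5. Of its kept cells, 49.4% and 51.6% were left unplaced (20.7% to 36.7% elsewhere), with medians of 720 and 862 UMIs. Transitional cells were 259 of 655 and 194 of 358 chondrocyte-like cells in replicate 1. They were 198 of 765, 54 of 606 and 517 of 1698 in controls 2 and 3 and knockout 3. The part of depth in this was not tested. Replicate 3 of both groups lists fewer genes than the other libraries. With the replicate number as a block, 0, 46 and 0 genes were called in the 3 sets of cells, and the fold changes of Col9a2 (-0.38) and Col9a3 (-0.40) in all chondrocyte-like cells and Col11a1 (-0.029) in hyaline cells turned sign. For the permutation tests a block by replicate number leaves the differences of means unchanged by arithmetic (0.87, 1.27 and 1.17), so their sameness is not a check.

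Log2 fold changes also turned sign under other settings. Doubled marker UMIs gave -0.0072 for Col9a2 in all chondrocyte-like cells and, in hyaline cells, -0.014 for Col9a1, -0.027 for Col11a1, 0.048 for Hapln1 and -0.10 for Matn3. Taking free RNA off, which left 8160, 7632 and 4066 genes tested, gave 0.038 for Col2a1 in all and 0.11 for Hapln1 in hyaline cells. Leaving out replicate 3 of both groups gave -0.65 for Col9a2, -0.85 for Col9a3 and -0.73 for Col10a1 in all chondrocyte-like cells and -0.071 for Col2a1, -0.18 for Col9a3 and -0.025 for Col11a1 in hyaline cells. Without a filter hyaline Col11a1 was -0.0037, and with DESeq2 hyaline Hapln1 was 0.0026. The stage ratio of Hapln1 was 0.12 with doubled markers, and free RNA of the 10 genes in neutrophils differed by -3.17 UMIs per 10000 under the stricter filter.

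With a library left out, that difference ran from -41.6 to 62.5 (below 0 without controls 2 or 3 or knockouts 1 or 3), and that of the chondrocyte-like share from -3.88 to 6.40 percentage points (below 0 without control 3 or knockout 3). Stage ratios ran from -0.21 to 0.020 for Acan and from -0.27 to 0.10 for Hapln1. In all chondrocyte-like cells fold changes ran from -0.55 to 0.41 (Col2a1), -1.02 to 0.19 (Col9a1), -0.33 to 0.55 (Col9a2), -0.57 to 0.62 (Col9a3), -0.35 to 1.15 (Col10a1), -0.98 to 0.13 (Col11a1), -0.57 to 0.29 (Col11a2), -0.64 to 0.37 (Acan), -0.86 to 0.21 (Hapln1) and -0.87 to 0.23 (Matn3). In hyaline cells they ran from -0.12 to 0.19 (Col9a1), -0.0052 to 0.96 (Col9a3), -0.12 to 0.22 (Col11a1), -0.20 to 0.20 (Hapln1) and -0.11 to 0.18 (Matn3). In hypertrophic cells they ran from -0.72 to 0.12 (Col9a2), -0.94 to 0.14 (Col9a3), -0.91 to 0.047 (Col10a1) and -0.86 to 0.28 (Acan). The cause of these turns was not tested.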
